A study of Mus musculus with 2 samples.

Results

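The genes described here are 41 genes of fatty acid uptake and oxidation in the heart of the mouse embryo at day 12.5. They were chosen by name, and the rows of all 41 were found among the 55536 annotated genes of both libraries. They fall into 8 genes of uptake, 5 of activation, 7 of the carnitine shuttle, 16 of beta-oxidation and its electron carriers, 3 of malonyl-CoA control and 2 uncoupling proteins. The study has a single group, the heart of B6NCrl embryos of both sexes mixed together, taken at 12.5 days, and it holds 2 libraries labelled as biological replicates 1 and 2. No genotype, treatment or control group is named in the labels. PolyA RNA was primed with oligo-dT from 10 ng of total RNA and cut by Nextera tagmentation, an enzymatic fragmentation, with ERCC spike-ins (synthetic RNAs) added. The biosamples are separate but carry the same donor identifier, so the spread over both libraries may be partly technical. The libraries are of whole hearts, so a level is an average over all the cells of the organ, and fewer cells of a type and less RNA per cell cannot be told apart.

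Long-chain fatty acids reach heart muscle cells from lipoproteins in blood, cross the membrane, are bound by small carrier proteins and are joined to coenzyme A. The carnitine shuttle then carries the acyl group into mitochondria, where each turn of beta-oxidation removes acetyl-CoA and passes electrons to the respiratory chain. Malonyl-CoA, made by acetyl-CoA carboxylases, blocks the entry step at carnitine palmitoyltransferase. The adult heart draws most of its energy from this pathway, while the fetal heart is known to depend more on glucose and lactate.

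The total of expected counts was 35520161 for replicate 1 and 32577548 for replicate 2. All 8 cardiomyocyte markers were detected, with summed levels of 31868 and 32004 TPM in replicates 1 and 2, where TPM is a transcript abundance scaled by length to a fixed library total. None of 6 adipocyte markers was detected, and their summed levels were 0.14 and 0.09 TPM, with Cidec, Lep and Cfd at 0 in both libraries. Markers of hepatocytes differed between the libraries. They summed to 245 TPM in replicate 1 but to 66.2 TPM in replicate 2, and Afp, the fetal counterpart of albumin, stood at 97.5 and 18.1 TPM. Red cell markers, led by Hbb-y and Hba-x, summed to 32516 and 29172 TPM. All 8 endothelial markers were detected (617 and 647 TPM summed, led by Plvap and Eng), as were 6 of 6 of mesenchyme (1361 and 1309 TPM, Col3a1 and Col1a1), of epicardium (242 and 239 TPM, Krt19 and Tcf21) and of macrophages (49.0 and 47.3 TPM, C1qb and Fcer1g). Of 6 skeletal muscle markers 3 were detected (66.0 and 69.2 TPM, Ckm and Mylpf).

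Of the 41 genes, 39 were detected, meaning a TPM of at least 1 in both libraries. Of all 22028 annotated protein-coding genes, 56.6% were detected by the same rule. The detected members had a median level of 64.7 TPM, against 19.1 TPM for all 12468 detected protein-coding genes. A TPM of at least 100 in both libraries was reached by 15 members, or 38.5% of those detected, against 10.9% of detected protein-coding genes. The members took 0.487% of gene counts in replicate 1 (95% Clopper-Pearson interval 0.484 to 0.489%) and 0.483% in replicate 2 (0.481 to 0.485%). No molecular identifiers were used here, so these intervals cover counting error only.

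The medians differed by role, while the levels of single genes overlapped between roles. Beta-oxidation genes had the highest median level, 142 TPM in replicate 1 and 139 TPM in replicate 2, and they held 59.8 ± 0.201% of the members' summed TPM (SD, n = 2). The medians of the carnitine shuttle, 44.4 and 45.8 TPM, and of uptake, 39.7 and 39.2 TPM, were lower. Activation genes had medians of 18.3 and 19.1 TPM. The 3 genes of malonyl-CoA control had the lowest medians, 12.6 and 13.1 TPM. Each step from one of these medians to the next exceeded the difference between the libraries. The step from the shuttle to uptake depends on counting Pnpla2, a lipase of stored triglyceride, under uptake. With Pnpla2 set aside, the middle uptake gene is Cd36, at 46.3 and 44.7 TPM. It lies above the shuttle median in replicate 1 and below it in replicate 2, so these roles are then not ordered. Uptake held the next largest share of the summed TPM, 25.2 ± 0.459%, and 2 carriers, Fabp3 and Fabp5, supplied most of it. The 2 uncoupling genes are left out of this order of medians. Their medians, 95.9 and 93.6 TPM, lie midway between a high Ucp2 and an undetected Ucp3.

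**Figure D1:**
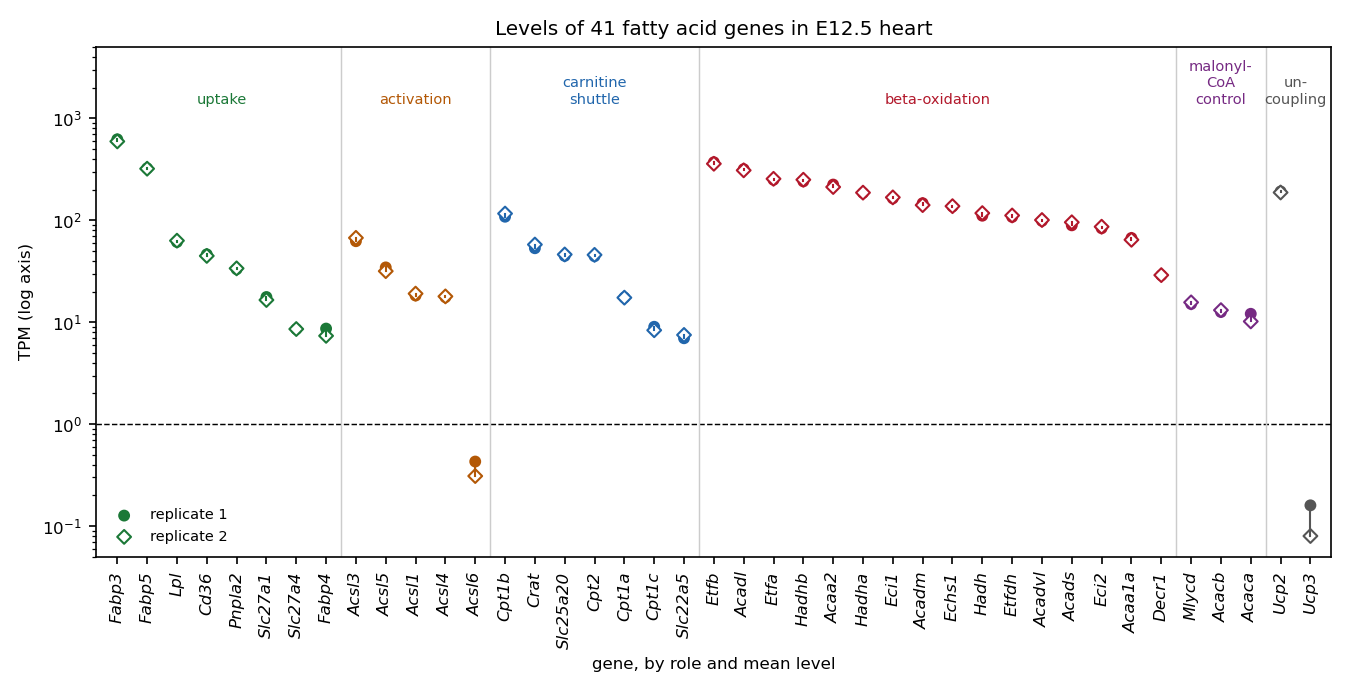
Level of each of the 41 genes (TPM, log axis) in replicate 1 (filled circles) and replicate 2 (open diamonds), ordered by role and mean level, with a dashed line at a TPM of 1. All 16 beta-oxidation genes lie between 28.9 and 371 TPM, and Acsl6 and Ucp3 alone lie under the dashed line.

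Among the uptake genes, the binding proteins spanned the widest range. Fabp3 (ENSMUSG00000028773, chromosome 4, 130308595 to 130315463 on mm10), the binding protein typical of heart and skeletal muscle, was the most abundant of all 41 genes, with 622 TPM for replicate 1 and 593 TPM for replicate 2. It ranked 176th among detected protein-coding genes, within the top 1.41%. Fabp5, a form found in skin and many other tissues, followed at 323 and 320.3 TPM. Fabp4, the form of adipocytes that is also found in capillary endothelium, stood at 8.66 and 7.35 TPM. The 3 carriers were thus well apart, with Fabp3 at 71.8 times Fabp4 (mean of both libraries, with 0.5 TPM added to each value) and 1.89 times Fabp5. Fabp4 (10204088 to 10208576) and Fabp5 (10012548 to 10016607) lie near each other on chromosome 3, and Fabp5 was the higher in both libraries.

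The genes that free and import fatty acids were at middle levels. Lpl, the lipase that releases fatty acids from lipoproteins at the vessel wall, stood at 61.2 and 63.0 TPM. Cd36, a membrane protein of endothelium and muscle that takes up long-chain fatty acids, stood at 46.3 and 44.7 TPM. Pnpla2, the lipase that starts the breakdown of stored triglyceride, stood at 33.1 and 33.7 TPM. The order Lpl, Cd36, Pnpla2 held in both libraries, but on the M4 annotation Cd36, at 34.4 and 34.7 TPM, overlapped Pnpla2, at 34.3 and 34.9 TPM.

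The transporters of the Slc27 family, which couple uptake to activation, were lower. Slc27a1, the form of muscle and fat, stood at 17.7 and 16.5 TPM. Slc27a4, a form of broad distribution, stood at 8.55 and 8.57 TPM, and its range overlapped those of Cpt1c and Fabp4. Slc27a1 was 1.94 times as high as Slc27a4 on the M21 annotation, a log2 ratio of 0.96 ± 0.07 (SD, n = 2). On the older M4 annotation this log2 ratio was 0.38 in replicate 1 and 0.21 in replicate 2.

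Of the 5 long-chain acyl-CoA synthetases, which activate fatty acids by joining them to coenzyme A, Acsl3 was the highest. Acsl3, a form linked to the endoplasmic reticulum and lipid droplets, stood at 62.3 and 67.2 TPM. Acsl5, a form of mitochondria and endoplasmic reticulum, stood at 34.5 and 31.7 TPM. Acsl1, the main synthetase of the adult heart, stood at 18.3 and 19.1 TPM, and was 0.294 times Acsl3. Acsl4, which prefers arachidonic acid, stood at 17.6 and 17.9 TPM. Acsl1 was the higher of these last 2 in both libraries, by a log2 ratio of 0.07 ± 0.03 (SD, n = 2), but on the M4 annotation the mean ratio turned to -0.0029. Acsl6, a form of brain and red cell precursors, stood at 0.43 and 0.31 TPM from 32 and 19 counts, below the detection limit in both libraries.

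The carnitine shuttle was led by the muscle form of its entry enzyme. Cpt1b (ENSMUSG00000078937, chromosome 15, 89416405 to 89425863), the muscle carnitine palmitoyltransferase of the outer mitochondrial membrane, stood at 108 and 116 TPM. Cpt1a, the form of liver and many other tissues, stood at 17.5 and 17.4 TPM. Cpt1c, a form of neurons that resides in the endoplasmic reticulum, stood at 9.02 and 8.34 TPM. The order Cpt1b, Cpt1a, Cpt1c held in both libraries with no overlap, and Cpt1b was 6.29 times Cpt1a and 12.3 times Cpt1c.

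The later steps of the shuttle were near each other. Slc25a20, the translocase that exchanges acylcarnitine for carnitine across the inner membrane, stood at 44.7 and 46.2 TPM. Cpt2, which returns the acyl group to coenzyme A inside mitochondria, stood at 44.4 and 45.8 TPM, and the ranges of these 2 genes overlapped each other and that of Cd36. Crat, which moves short acyl groups such as acetyl onto carnitine, stood at 53.1 and 57.8 TPM. Cpt1b was 2.47 times Cpt2. Slc22a5, the carnitine importer of the plasma membrane, was the lowest of the shuttle at 6.96 and 7.50 TPM.

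All 16 beta-oxidation genes were detected, and 11 of the 15 members that reached 100 TPM in both libraries belonged to them. The acyl-CoA dehydrogenases, which open each turn, differ in the chain lengths they prefer. Acadl, the long-chain enzyme, stood at 317 and 309 TPM and was the highest of the 4. Acadm, the medium-chain enzyme, stood at 147 and 141 TPM. Acadvl, the very-long-chain enzyme bound to the inner membrane, stood at 98.5 and 100.5 TPM. Acads, the short-chain enzyme, stood at 89.1 and 95.5 TPM. The 4 ranges did not overlap, and Acadl was 3.14 times Acadvl and 2.17 times Acadm.

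The soluble enzymes that complete the turn were also high. Echs1, the enoyl-CoA hydratase, stood at 136 and 137 TPM. Hadh, the hydroxyacyl-CoA dehydrogenase of shorter chains, stood at 111 and 117 TPM. Acaa2, the mitochondrial thiolase, stood at 224 and 212 TPM. Acaa1a, the thiolase of peroxisomes, stood at 67 and 64.3 TPM, so that Acaa2 was 3.30 times as high. Among the enzymes that handle double bonds, Eci1, an enoyl-CoA isomerase, stood at 164 and 168 TPM. Eci2, its counterpart of mitochondria and peroxisomes, stood at 83.5 and 86.4 TPM. Decr1, the dienoyl-CoA reductase needed for polyunsaturated chains, was the lowest of the 16 genes at 28.9 and 29.0 TPM.

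The flavoprotein subunits were among the highest of the beta-oxidation genes, and the third electron carrier was lower. Etfb, the beta subunit of the electron transfer flavoprotein, stood at 371 and 358 TPM, second to Fabp3 among the 41 genes. Etfa, the alpha subunit, stood at 249 and 255 TPM, which was 0.692 times Etfb. Etfdh, the oxidoreductase that hands the electrons to ubiquinone, stood at 108 and 111 TPM. Etfa exceeded Etfb when expected counts were compared without division by length, by 0.21 on the log2 scale. All 3 carriers were above 100 TPM in both libraries.

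Hadha and Hadhb encode the alpha and beta subunits of the mitochondrial trifunctional protein, which carries out the last 3 reactions of each turn on long chains. Hadha (ENSMUSG00000025745, chromosome 5, 30118304 to 30155162) stood at 185 and 186 TPM. Hadhb (ENSMUSG00000059447, chromosome 5, 30155248 to 30184593) stood at 241 and 249.6 TPM. Hadha was 0.759 times Hadhb, with ratios of 0.771 in replicate 1 and 0.748 in replicate 2. The genes lie head to head on opposite strands. Their RefSeq transcription starts are 273 bases apart, and the windows of 250 bases before and 50 bases after each start share 228 bases. The Hadhb window, at chr5:30155003-30155302 on the plus strand of GRCm38.p6, from RefSeq, is printed because it shares these bases with the Hadha window. Capitals mark GGGCGG, a GC box bound by Sp1-type factors, on either strand. It occurs 4 times, and AGGTCA, the core hexamer of many nuclear receptor sites, occurs 0 times.
Hadhb: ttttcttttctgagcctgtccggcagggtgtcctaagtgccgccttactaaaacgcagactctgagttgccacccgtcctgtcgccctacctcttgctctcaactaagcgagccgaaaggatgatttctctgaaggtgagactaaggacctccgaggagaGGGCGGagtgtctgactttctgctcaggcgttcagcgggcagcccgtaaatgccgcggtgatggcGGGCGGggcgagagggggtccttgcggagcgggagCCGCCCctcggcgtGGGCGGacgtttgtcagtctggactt

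Malonyl-CoA control was the least abundant of these groups. Acaca, the cytosolic acetyl-CoA carboxylase that also feeds fatty acid synthesis, stood at 12.1 and 10.2 TPM. Acacb, the carboxylase tied to the outer mitochondrial membrane that regulates Cpt1, stood at 12.6 and 13.1 TPM. The 2 carboxylases were near each other, with Acaca at 0.962 times Acacb in replicate 1 and 0.784 times in replicate 2. Mlycd, the decarboxylase that removes malonyl-CoA, stood at 15.1 and 15.7 TPM, above both carboxylases in both libraries. All 3 genes lay between 10.2 and 15.7 TPM.

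The uncoupling proteins, carriers of the inner mitochondrial membrane, stood furthest apart of all. Ucp2 (ENSMUSG00000033685, chromosome 7, 100493337 to 100502020), a form found in many tissues, stood at 192 and 187 TPM. Ucp3 (ENSMUSG00000032942, chromosome 7, 100472990 to 100486432), the form of skeletal muscle and adult heart, stood at 0.16 and 0.08 TPM from 8 and 3 counts. Ucp2 ranked 683rd among detected protein-coding genes, within the top 5.48%, while Ucp3 was not detected. The log2 ratio of Ucp2 to Ucp3 was 8.26 ± 0.11 (SD, n = 2), a value that depends on the 0.5 TPM added to each. These genes are neighbours on the same strand, with RefSeq starts 20367 bases apart. Their start windows are printed because they share a neighbourhood and differ most in level. Ucp2 lies at chr7:100493108-100493407 and Ucp3 at chr7:100472741-100473040, both on the plus strand of GRCm38.p6, from RefSeq, with GGGCGG and AGGTCA in capitals on either strand.
Ucp2: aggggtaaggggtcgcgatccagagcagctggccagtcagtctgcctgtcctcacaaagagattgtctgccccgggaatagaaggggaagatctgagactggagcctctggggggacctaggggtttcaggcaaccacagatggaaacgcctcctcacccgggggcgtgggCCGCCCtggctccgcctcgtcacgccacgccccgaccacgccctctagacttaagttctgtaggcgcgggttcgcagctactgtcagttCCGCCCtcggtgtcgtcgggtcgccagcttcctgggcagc
Ucp3: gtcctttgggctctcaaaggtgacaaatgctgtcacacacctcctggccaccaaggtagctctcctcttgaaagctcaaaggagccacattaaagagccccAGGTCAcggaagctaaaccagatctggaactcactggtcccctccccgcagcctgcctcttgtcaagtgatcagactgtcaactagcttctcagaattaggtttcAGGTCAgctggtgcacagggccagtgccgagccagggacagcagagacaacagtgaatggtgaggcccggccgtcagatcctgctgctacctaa
The Ucp2 window holds 2 copies of GGGCGG and 0 of AGGTCA, and the Ucp3 window holds 0 and 2. G and C made up 64.3% of the Ucp2 window and 55% of the Ucp3 window. These are matches of letters only, and no binding was measured.

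The 22 pairs of related genes kept their direction between the libraries. In 16 pairs the first gene was the higher in both libraries, and in 6 the second was. In 12 pairs the log2 ratios of the libraries lay within 0.1 of each other. The widest difference between libraries among genes detected in both was in Acaca against Acacb, at -0.06 in replicate 1 and -0.35 in replicate 2. In replicate 1, 2.92 of the 12.1 TPM of Acaca came from 23.95 expected counts of a short transcript, Acaca-206. In replicate 2 this transcript was listed at 0. Ordered by mean level, the 41 genes form 40 neighbouring steps. In 12 of these steps the ranges of the libraries overlapped, for example between Etfa and Hadhb, Cpt1b and Etfdh, Acsl3 and Lpl, and Pnpla2 and Acsl5, so their order is not resolved.

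**Figure D2:**
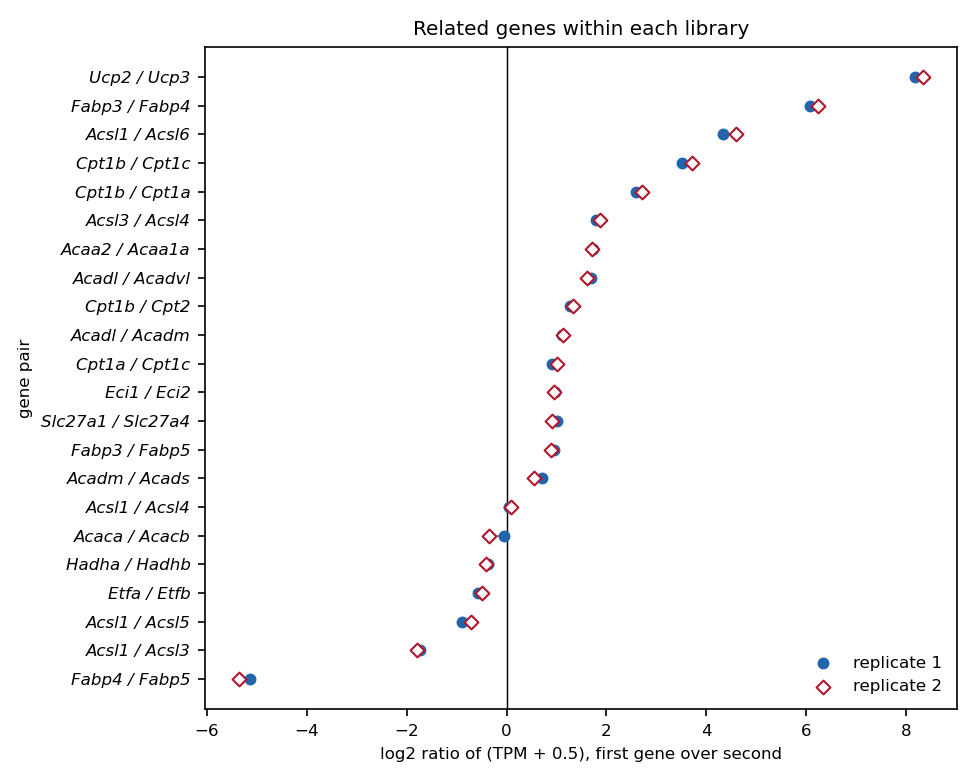
Log2 ratio of TPM (0.5 added to each) of the first gene over the second, for 22 pairs of related genes in replicate 1 (circles) and replicate 2 (diamonds), with a line at equal levels. Every pair lies on the same side of the line in both libraries, from Fabp4 over Fabp5 at -5.14 and -5.35 to Ucp2 over Ucp3 at 8.19 and 8.34.

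The libraries were then compared with each other, gene by gene, with an exact conditional binomial test on scaled counts that covers counting error alone and says nothing of conditions. Of the 41 genes, 40 had a summed count of at least 20 and were tested, and Ucp3 was not. A gene counted as called where its adjusted p was under 0.05 and its level differed by at least 1 on the log2 scale. No member was called, while 1.57% of all 17970 genes tested were, 0.707% higher and 0.863% lower in replicate 2. That share is not matched to the members in depth. After the count minimum was raised to 100, 39 members stayed in the test and 0 were called, against 60 of all 13882 genes. Most of the 282 genes called at first thus had low counts, and the lack of calls among members does not set them apart. With DESeq2's size factors 0 members were called as well. At an unadjusted p under 0.05 with no fold threshold there were 11 members of 40, while 22.5% of all genes tested passed. Without the fold threshold, 5 of the 40 passed, near the 10.0% of all genes that passed. Of these, 1 was higher in replicate 2, against 4.28% of all genes, and 4 were lower, against 5.73%.

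The 5 differences were small. Fabp3 was lower in replicate 2 by a log2 ratio of -0.10 (95% interval -0.14 to -0.06, exact binomial p = 4.46e-05 after Benjamini-Hochberg adjustment over all genes). Acaa2 was lower at -0.11 (-0.16 to -0.06, exact adjusted p = 0.000206). Acadl was lower at -0.07 (-0.10 to -0.04, exact adjusted p = 0.00219). Ucp2 was lower at -0.09 (exact adjusted p = 0.0363) and Acsl3 higher at 0.09 (exact adjusted p = 0.0440), and neither passed under every scaling. With total counts Ucp2 had an exact adjusted p of 0.0860, and with spike-in totals Acsl3 had 0.0815. With spike-in totals Etfb passed instead, at -0.08 (exact adjusted p = 0.0255).

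The remaining tested members did not pass. Of all those tested, 38 lay within 0.25 on the log2 scale, and the others were Fabp4 at -0.27 (-0.60 to 0.05) and Acsl6 at -0.63 (-1.54 to 0.22). The median absolute log2 ratio was 0.04 over the members and 0.10 over all genes tested, but the members were counted more deeply, with a median summed count of 6011 against 1057. By role, the median log2 ratio was -0.06 for uptake, -0.01 for activation, 0.02 for the carnitine shuttle, -0.01 for beta-oxidation and 0.02 for malonyl-CoA control. The test uses scaled counts, and TPM need not move the same way. Acsl1, for example, was higher in replicate 2 in TPM and lower in scaled counts, at -0.03.

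**Figure D3:**
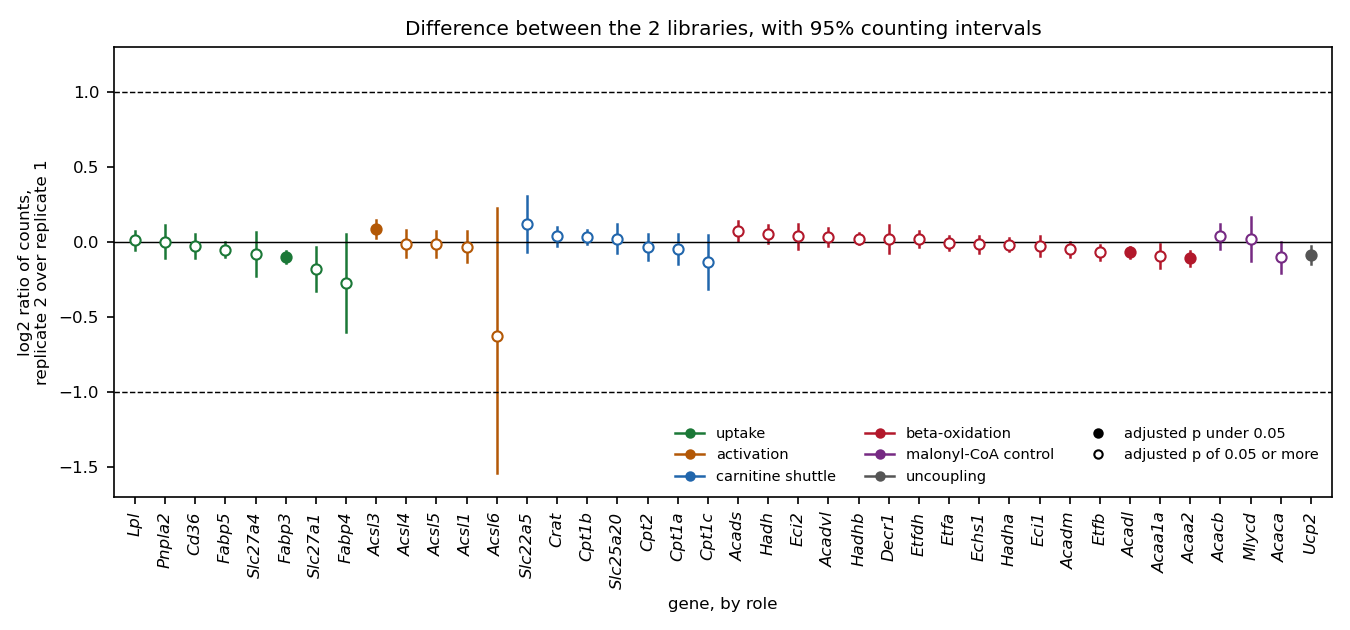
Log2 ratio of TMM-scaled counts, replicate 2 over replicate 1, with exact 95% counting intervals, for the 40 genes tested, ordered by role; filled points have an adjusted p under 0.05 and dashed lines mark an absolute ratio of 1. The 5 filled points lie between -0.11 and 0.09, and the widest interval is that of Acsl6.

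The deposited transcript tables divide each gene's TPM among its annotated transcripts. In 36 of the 41 genes a single transcript held at least 50% in both libraries, among them Ucp3 with only 8 and 3 counts. Fabp3 has only 1 annotated transcript, so its share of 100% is fixed by the annotation. Acadl and Acaa2, with 2 annotated transcripts each, came from 1 of them at 100%, and Cpt1b-201 held 99.9 and 96.9% of Cpt1b. The median share of protein-coding transcripts was 96.4% over detected members and 92.5% over all detected protein-coding genes. That share was under 50% in 2 of 39 members, or 5.13%, against 9.73% of all detected protein-coding genes. These 2 were Hadha and Lpl. Transcripts of a gene share most of their exons, so the split is the authors' estimate, and no junction reads were examined here. The shares are of TPM, so a short transcript can hold a large share from few counts.

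In Hadha the leading transcript was not annotated as coding. Hadha-201, a processed transcript in the annotation, held 55.7 and 58.6% of Hadha, and the short processed transcript Hadha-204 held 24.1 and 24.7%. Hadha-205, the coding transcript, held 13.5 and 12.2%. These shares are of TPM, and Hadha-204 is only 323 bases long. In expected counts Hadha-204 had 247 and 231 and Hadha-205 had 2421 and 1981, of 9189 and 8385 for the gene. Compared with Hadha-205, Hadha-201 skips 157 bases of coding sequence, the last 32 of an exon and the first 125 of the exon after it, between positions 30120719 and 30120066 of chromosome 5 (mm10, minus strand). This length leaves a remainder of 1 when divided by 3. Hadha-205 also has 1122 bases of its last exon and 186 bases at its start that Hadha-201 lacks. The internal stretch is printed because all of it is coding sequence. Capitals mark the skipped bases and lower case the 20 bases on either side, from the GENCODE M21 transcript Hadha-205.
Hadha: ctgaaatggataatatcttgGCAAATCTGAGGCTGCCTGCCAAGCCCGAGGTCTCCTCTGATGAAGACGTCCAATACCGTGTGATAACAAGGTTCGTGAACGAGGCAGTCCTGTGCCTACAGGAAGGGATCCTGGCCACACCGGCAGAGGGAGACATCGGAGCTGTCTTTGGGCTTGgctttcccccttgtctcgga
Only Hadha-205 holds the whole stretch, and Hadha-204 holds part of it. The total of Hadha given above is the sum over all these transcripts, and Hadha-204 supplied 44.7 and 46.1 TPM of it. The ratio of Hadha to Hadhb uses this total.

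Both lipases among the members, Lpl and Pnpla2, also had a large share outside coding transcripts. Lpl-203, annotated as subject to nonsense-mediated decay, held 58.2 and 58.4% of Lpl, and the coding Lpl-201 held 39.9 and 40.2%. These shares are of TPM. In expected counts Lpl-201 was the higher, with 2418 and 2269, against 1584 and 1480 for the shorter Lpl-203. The longer Lpl-201 is the only one of the 2 to hold 2367 bases of its last exon (chromosome 8, 68904568 to 68906934), and Lpl-203 ends in a further exon of 216 bases. Pnpla2-201, annotated likewise as a decay target, held 47.0 and 41.4% of Pnpla2, and the coding Pnpla2-202 held 34.1 and 38.3%. All coding transcripts of Pnpla2 together held 50.9 and 57.0%, more than the decay target in both libraries. By share of TPM, the order of the leading transcripts of Lpl and of Pnpla2 was the same in both libraries. In replicate 2, however, Pnpla2-201 and Pnpla2-202 were close, at 13.98 and 12.91 TPM. Their expected counts there were 608 and 490, with deposited posterior standard deviations of 63.2 and 48.4, so their order in that library is uncertain.

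Further members split by type. Slc27a1 was divided among coding transcripts, 57.4 and 54.3%, and transcripts with retained introns. Ucp2-210, a coding transcript, held 52.4 and 53.7% of Ucp2, and the processed transcript Ucp2-211 held 28.1 and 27.1%. Eci1, Acsl5, Cpt1c and Acacb had mean coding shares of 72.9, 73.1, 74.9 and 80.7%, with the remainder in transcripts with retained introns. The split of Acaca differed between the libraries, where the short Acaca-206 held 24.2% in replicate 1 and was listed at 0 in replicate 2. That share came from 23.95 of 1677 expected counts, on a transcript of 431 bases. In scaled counts Acaca differed between the libraries by a log2 ratio of -0.10 (exact binomial adjusted p = 0.214). In that gene the full-length Acaca-201 held 59.3 and 63.4%.

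**Figure D4:**
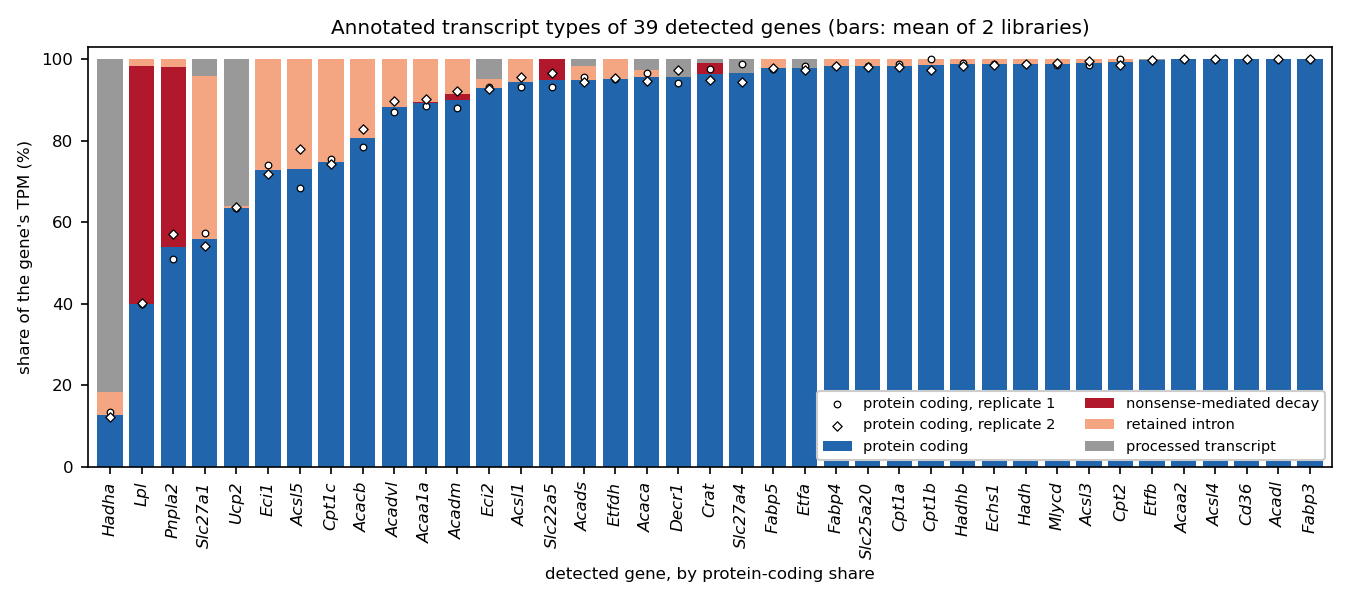
Share of each detected gene's TPM by annotated transcript type (stacked bars, mean of 2 libraries, percent), with the protein-coding share of each replicate as a circle or diamond. Hadha and Lpl lie under 50% protein coding, and 28 of the 39 genes lie at 90% or above.

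The choice of annotation moved few members. All 41 genes are in the M4 tables as well, and 35 lay within 0.1 on the log2 scale of their M21 value in both libraries, with a median shift of 0.06. Cd36, Slc27a1, Cpt1c and Eci1 were lower by more than that on M4 in both libraries, and Ucp2 was higher. Slc27a1 moved most, at -0.56 in replicate 1 and -0.64 in replicate 2. Acsl5 moved in replicate 1 alone, at -0.13.

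Overlapping genes bear on some of these values, since whether counting used strand is not given in the sources used here. Another annotated gene overlaps 22 of the 41 members. A detected gene on the other strand overlaps 8 of them, such as Zcchc17 (37.7 and 35.9 TPM) at Fabp3 and Zdhhc6 (56.4 and 55.7 TPM) at Acsl5. A detected gene on the same strand overlaps 1, Utp14b at Acsl3, with 1.94 and 1.86 TPM. Reads of such partners cannot be told apart here. In no member did the deposited posterior standard deviation of the count exceed 1% of the count.

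RefSeq start windows of 300 bases were found for 34 of the 41 genes, as 39 windows on GRCm38.p6, and each motif was searched on both strands. No window was found for Crat, Decr1, Acaa2, Lpl, Fabp4, Cpt1b and Fabp5, so nothing is said of their starts. GGGCGG was in 28 of 39 windows, 71.8%, against 35.7% of all 32851 windows and 63.2% of the windows of detected protein-coding genes. AGGTCA was in 9 windows, 23.1%, against 16.3% and 12.1%. The 9 genes with it were Cd36, Acsl6, Cpt1a, Cpt1c, Acadvl, Acadm, Echs1, Acacb and Ucp3, of which 7 were detected. TCAAGGTCA, which contains AGGTCA and is the extended site of estrogen-related receptors, was in 1 window, that of Acsl6, or 2.56%, against 0.423% and 0.239%. DR1, a direct repeat of AGGTCA with 1 base between, was in 0 windows, against 0.0396% and 0.0319%. It is so rare in all windows that its absence from 39 windows carries no information. CCAAT was in 18 windows, 46.2% against 37.4% and 37.8%. TATAAA was in 1, that of Acacb, or 2.56% against 13.6% and 7.07%. No test was made of these shares, and the windows cover only a short stretch around each start.

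Around these members, 99 further genes of fatty acid handling in 9 lists were measured, of which 83 were detected. Of 88 tested between the libraries, 0 were called higher and 2 lower. These 2 were Slc27a2, an acyl-CoA synthetase and transporter of liver and kidney, at 0.67 and 0.13 TPM, and Fabp7, a binding protein of brain, at 3.04 and 1.39 TPM. All 12 hepatocyte markers were called lower in replicate 2 as well, and their part in these 2 differences was not tested. Fabp1, the binding protein of liver, stood at 0.80 and 0.39 TPM, and Fabp6 was at 0 in both libraries. The highest of the other uptake genes were Lmf1, Vldlr and Slc27a3, at 27.1, 17.2 and 7.72 TPM in replicate 1 and 27.5, 18.5 and 8.04 TPM in replicate 2.

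Downstream of uptake, Dbi, the acyl-CoA binding protein, was the highest gene of all the lists at 544 and 509.95 TPM, and the thioesterases Acot13 and Acot7 stood at 152.5 and 49.7 TPM in replicate 1 and 145 and 50.3 TPM in replicate 2. Acsbg1, a synthetase, stood at 0.16 and 0.03 TPM, and its relative Acsbg2 was at 0 in both. Of 12 lipid droplet and lipolysis genes 9 were detected, led by Plin3 and Plin2, droplet coat proteins, at 46.3 and 42.3 TPM in replicate 1 and 46.7 and 46.2 TPM in replicate 2. Dgat1, which makes triglyceride, stood at 35.8 and 37.1 TPM. Plin1 and Plin5, coat proteins of fat cells and of oxidative tissues, were under 1 TPM in both. All 13 other mitochondrial genes were detected, led by Acat1, the acetoacetyl-CoA thiolase, at 145 and 152 TPM. Hsd17b10, a dehydrogenase of branched chains, stood at 121 and 124 TPM, and Acad9, an acyl-CoA dehydrogenase needed for assembly of complex I, at 69.6 and 71.4 TPM. Of 16 peroxisomal genes 13 were detected, led by Scp2, a sterol carrier with thiolase activity, at 130.3 and 130.7 TPM. Phyh, which starts the breakdown of phytanic acid, stood at 104 and 109 TPM, and Hsd17b4, the peroxisomal bifunctional enzyme, at 77.1 and 80.5 TPM. The peroxisomal genes Abcd2 and Acaa1b were under 1 TPM in both libraries. All 4 genes of ketone bodies were detected, and Oxct1, which uses ketone bodies, stood at 262 and 259 TPM. Bdh1, a dehydrogenase of ketone bodies, stood at 12.2 and 9.76 TPM. Of 3 genes of carnitine synthesis, Aldh9a1 stood at 21.6 and 21.1 TPM and Tmlhe at 1.64 and 1.98 TPM, while Bbox1, the last enzyme, was not detected, at 0 and 0.03 TPM.

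Of 15 genes of AMP-activated kinase and fatty acid synthesis, 14 were detected. Scd2, a desaturase, stood at 169 and 179.96 TPM, while its relative Scd1 stood at 0.87 and 0.96 TPM. Prkag2, a regulatory subunit of the kinase, stood at 82.5 and 83.6 TPM, and Acly, which makes cytosolic acetyl-CoA, at 73.4 and 77.1 TPM. Fasn, the fatty acid synthase, stood at 35.3 and 37.0 TPM, above both acetyl-CoA carboxylases. Of 12 nuclear receptors and coactivators, a class that includes known regulators of fatty acid genes, 11 were detected. Ppargc1a, a coactivator of mitochondrial genes, stood at 40.3 and 41.6 TPM, and Esrrg and Esrra, estrogen-related receptors, at 26.1 and 23.6 TPM in replicate 1 and 30.6 and 21.4 TPM in replicate 2. Rxrb, a partner of many nuclear receptors, stood at 27.2 and 28.8 TPM. Ppara, the receptor best known as a regulator of fatty acid oxidation, stood at 2.58 and 1.81 TPM. Fasn, Esrra and Ppara are outside the rule for naming genes and were chosen after their values were seen.

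**Figure D5:**
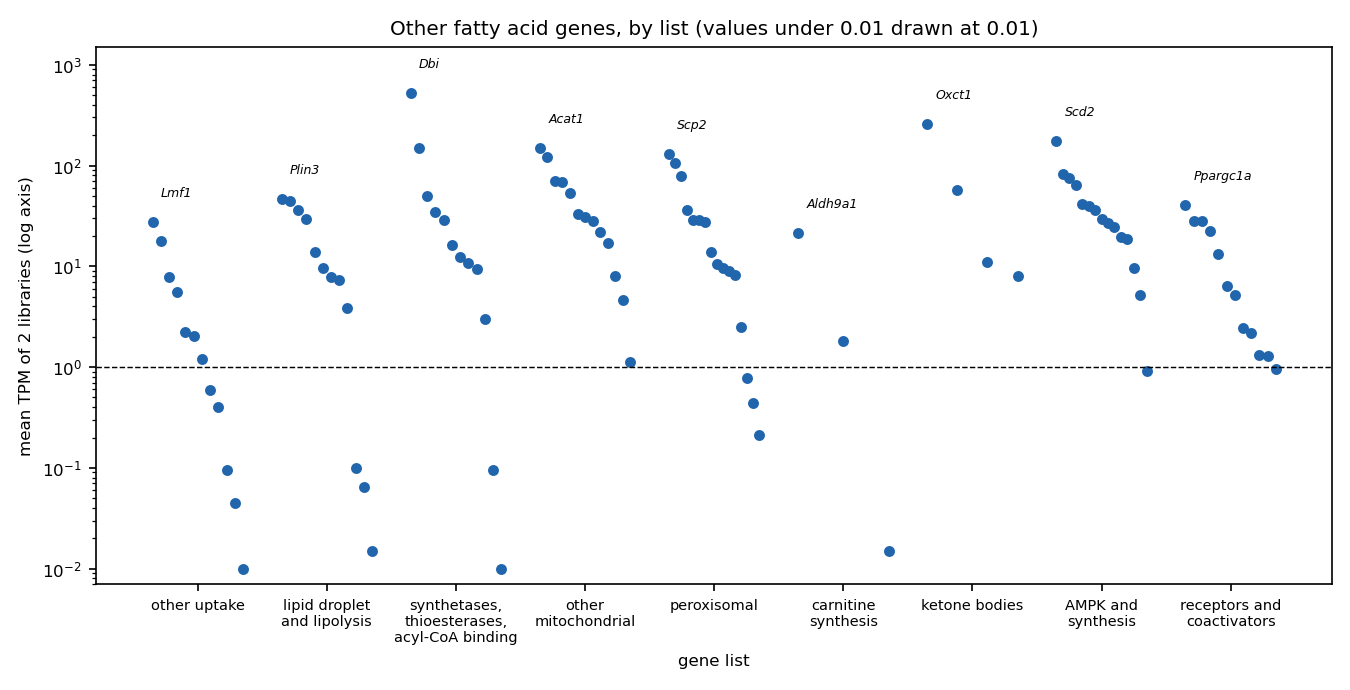
Mean TPM over both libraries (log axis) of 99 other fatty acid genes in 9 lists, in falling order within each list, with the highest of each list named and a dashed line at a TPM of 1. Dbi and Oxct1 lie highest, and 83 of the genes reached a TPM of 1 in both libraries.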

How the data were processed

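Whole-heart polyA RNA of mouse embryos was measured in 2 libraries of 1 group, which allows no comparison of conditions. The authors deposited gene and transcript tables on GENCODE M21 and M4 (mm10), per the text deposited beside the tables. Deposited expected counts are estimated reads per feature, and they were rounded for tests. Deposited TPM values are abundances per effective length, scaled to a common total that includes spike-ins, per the file headers and column sums. Which aligner, counter, versions and strand setting were used is not given in the sources used here. Totals were 35520161 and 32577548 expected counts. Rows with numeric identifiers (26248, holding 0.000115 and 0.000117% of counts) name no gene and were left out of tests and library sizes.

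The members, pairs, gene lists and tests were chosen with earlier results of these data known. The rule named all 41 members and, of each other list, the 3 highest genes, up to 2 under 1 TPM in both libraries and any gene called; a gene that it names is not reported here. Levels are given per library or as mean ± SD (n = 2). Libraries were compared by a two-sided exact conditional binomial test on genes with 20 or more counts over both libraries, scaled by TMM (edgeR 4.0.16), with 0.5 added to scaled counts for ratios and Benjamini-Hochberg adjustment. Alternatives were DESeq2 1.42.0 size factors, total and spike-in scaling, other count minimums and pseudocounts, no fold threshold, posterior mean TPM, counts without division by length, M4 tables, each library alone and a 75% transcript threshold. The test was also run on simulated counts with Poisson counting error alone. That is the error the test assumes, so the run says nothing of other variation between libraries.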

Additional observations from a re-analysis of the deposited data

How the results depend on the processing

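The number of detected members (39), the members called between libraries (0) and the number of all genes called (282) kept their values within 1.5 times under each alternative run, with 2 exceptions. A summed count of at least 100 left 60 of all genes called, with 13882 genes tested in place of 17970. Without a fold threshold 5 members and 1799 genes passed. On M4 the median level moved to 34.6 TPM for uptake, 46.4 for the carnitine shuttle, 144 for beta-oxidation, 13.4 for malonyl-CoA control and 107 for uncoupling, each by more than the SD of the libraries. With posterior mean TPM it moved to 38.7 for uptake, 19.7 for activation, 138 for beta-oxidation and 93.0 for uncoupling. With Pnpla2 counted under uptake, the order of the role medians was the same under both, with beta-oxidation highest and malonyl-CoA control lowest. At a threshold of 75%, 23 members had a dominant transcript, in place of 36. Of the 22 pairs, 16 had the first gene higher, and 15 did so on M4 or by counts not divided by length. The log2 ratio of Acsl1 to Acsl4 turned to -0.0029 on M4 and to -0.42 by such counts, that of Slc27a1 to Slc27a4 to -0.0097 and that of Etfa to Etfb to 0.21 by such counts. The cause of these changes was not tested, apart from length in the counts. No paired analysis was possible because the study has a single group. Depth limits Acsl6 (32 and 19 counts) and Ucp3 (8 and 3 counts). With 2 libraries of 1 group, the spread between embryos is poorly known.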
